A study of Homo sapiens with 52 samples.

Results

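The genes described here were 39 genes of the unfolded protein response and of the ATF4 response, taken by gene symbol from the 78894 genes of the gene-level tables. They were read in all 52 samples and divided into an ATF4 arm of 19 genes and an ER chaperone arm of 20 genes. Every member passed the filter on low counts in each cell line, so no member was left out of a test.

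The study knocked down neuropilin-1 (NRP1), a transmembrane co-receptor of growth factor receptors, in 3 breast cancer cell lines described as claudin-low: SUM159PT with 17 samples, MDA-MB-231 with 18 and HS578T with 17. Each line had 6 groups, 18 in all. In the siRNA groups, cells were reverse transfected with a non-targeting siRNA (siNT) or with siNRP1#3 or siNRP1#5 at 20 nM and harvested after 72 hrs. In the shRNA groups, cells carried a lentiviral pLKO.1 vector that held either shNRP1#3, shNRP1#5 or a non-targeting hairpin (shNT), were selected with puromycin, and were harvested 48 hrs after seeding. The number 3 reagents target the transmembrane form of NRP1 and differ in sequence between siRNA and shRNA, whereas the number 5 reagents share a sequence and target the soluble form as well. Groups held 3 samples, except SUM159PT siNRP1#5 and HS578T shNRP1#3 with 2 each. The paper states that 2 outliers were taken out at quality control, without naming their groups. The shRNA replicates were consecutive passages of transduced cells, so the p-values measure the spread between such samples only.

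The unfolded protein response is set off when misfolded proteins collect in the endoplasmic reticulum (ER). Its sensors IRE1, ATF6 and PERK raise the production of chaperones, folding enzymes and the machinery that removes failed proteins, and PERK also slows translation while favouring that of the transcription factor ATF4. ATF4 is shared with the response to amino acid shortage, heme deficiency and double-stranded RNA, and it turns on genes of amino acid synthesis and transport, stress sensors and, when stress lasts, the death-promoting factor CHOP (DDIT3).

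The sequence motifs of the arms differed in the promoters that RefSeq gives for these genes (GRCh38.p14, 250 bases before to 50 bases after each start). Promoters were found for 16 ATF4 arm genes and 19 ER arm genes, with none for NUPR1, PSPH, SHMT2 and PDIA3. Motifs were searched on both strands. A member gene was counted if any of its promoters held the motif, whereas the shares of all promoters count each promoter, so these shares differ in unit. The ER stress response element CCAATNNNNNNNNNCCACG was present in 7 of the 19 ER arm genes (CALR, CANX, CRELD2, HSP90B1, HSPA5, PDIA6 and XBP1), or 36.8%, in 0 of the 16 ATF4 arm genes, and in 0.0769% of all 35116 promoters. The second form, ATTGGNCCACG, was in 3 ER arm genes (HERPUD1, HYOU1 and SDF2L1) and in 0.0541% of all promoters, and TGACGTGG, the core of the unfolded protein response element, was in HYOU1 and in 0.729% of all promoters. The CEBP-ATF element TGATGNAA, to which ATF4 binds with a CEBP partner, was in 4 ATF4 arm genes (AARS1, ASNS, CHAC1 and SLC3A2), in HERPUD1, and in 3.62% of all promoters. No motif overlapped another in the promoters shown. The promoters of HSPA5, HERPUD1, CHAC1 and ASNS are shown because they hold the element of 1 arm or, in HERPUD1, of both, and their levels are described below. Capitals mark the fixed letters of the motifs, on either strand, and all sequences run 5′ to 3′ along the gene.
HSPA5, chr9:125241294-125241593, minus strand: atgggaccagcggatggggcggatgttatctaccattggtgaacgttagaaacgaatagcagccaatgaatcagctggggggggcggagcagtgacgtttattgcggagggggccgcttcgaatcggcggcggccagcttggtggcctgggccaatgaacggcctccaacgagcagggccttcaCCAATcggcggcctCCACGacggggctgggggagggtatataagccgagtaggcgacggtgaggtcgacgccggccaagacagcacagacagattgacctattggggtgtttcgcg
HERPUD1, chr16:56931892-56932191, plus strand: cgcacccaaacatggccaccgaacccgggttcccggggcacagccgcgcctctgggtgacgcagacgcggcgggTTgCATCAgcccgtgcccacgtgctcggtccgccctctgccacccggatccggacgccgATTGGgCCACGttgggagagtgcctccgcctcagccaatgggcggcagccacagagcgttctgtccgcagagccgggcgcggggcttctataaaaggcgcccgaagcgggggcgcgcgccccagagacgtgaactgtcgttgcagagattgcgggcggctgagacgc
CHAC1, chr15:40953221-40953520, plus strand: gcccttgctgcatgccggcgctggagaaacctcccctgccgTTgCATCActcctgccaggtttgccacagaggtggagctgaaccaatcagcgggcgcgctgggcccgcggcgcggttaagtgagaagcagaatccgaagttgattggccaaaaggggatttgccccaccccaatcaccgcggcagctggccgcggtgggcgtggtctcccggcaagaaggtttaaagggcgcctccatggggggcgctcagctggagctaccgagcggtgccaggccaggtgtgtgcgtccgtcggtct
ASNS, chr7:97872359-97872658, minus strand: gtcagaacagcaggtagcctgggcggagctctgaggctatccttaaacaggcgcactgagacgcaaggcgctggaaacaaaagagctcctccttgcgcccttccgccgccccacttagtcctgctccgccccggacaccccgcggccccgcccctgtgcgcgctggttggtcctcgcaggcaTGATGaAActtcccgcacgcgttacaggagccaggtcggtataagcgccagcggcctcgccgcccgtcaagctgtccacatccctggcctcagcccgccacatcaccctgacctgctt

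Depth ran from 25310443 to 72003442 expected counts per sample. NRP1 itself was lower in all 12 knockdown groups than in the matching NT control, by log2 fold changes from -0.70 (MDA-MB-231 siNRP1#3) to -4.88 (MDA-MB-231 siNRP1#5), and the difference passed the test in 11 of them, all but HS578T shNRP1#3 (adjusted p = 0.069). Vimentin was at 1311 TPM or more and ZEB1 at 1.29 TPM or more in every sample. CLDN4 lay between 62.6 and 226 TPM in the MDA-MB-231 samples, so that this claudin was not low in that line. CLDN7 lay between 10.4 and 61.5 TPM there, CLDN3 between 2.87 and 13.4, and CDH1 at 3.33 or below. In SUM159PT and HS578T, CLDN3 and CDH1 were at 0.97 TPM or below, CLDN7 at 7.43 or below and CLDN4 at 27.9 or below. Some HS578T libraries stood apart by transcripts of another line. Over 59 marker genes of MDA-MB-231, at least 20 CPM on average in its controls and at most 0.5 in those of HS578T, the median level relative to MDA-MB-231 was 24.8%, 18.1% and 13.3% in siNRP1#5 replicates 1, 2 and 3, and 2.57%, 3.39% and 7.42% in siNRP1#3, against at most 2.19% in siNT. Over 70 markers of SUM159PT chosen in the same way it was 8.72% in HS578T siNRP1#5 replicate 2. Results on these groups are given below as measured, and what subtracting these reads changed is given with the counts of members called.

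In the NT controls, the members spanned a wide range of TPM, a level scaled to gene length and library size. Calreticulin (CALR), a lectin chaperone, was the highest member in each line, with means of 786 ± 197 TPM for SUM159PT, 997 ± 67.3 for MDA-MB-231 and 1141 ± 257 for HS578T (SD, n = 6 controls). ERN1, which encodes the sensor IRE1, was the lowest, at 4.38 ± 1.3, 2.37 ± 0.35 and 1.16 ± 0.48 TPM. ATF4 had rank 2 of the 39 in SUM159PT and HS578T and rank 5 in MDA-MB-231, with 450 ± 259, 366 ± 53.7 and 403 ± 54.8 TPM, whereas its target CHAC1, a glutathione-degrading enzyme, stood at 12.1 ± 14.3, 13.6 ± 9.15 and 13.3 ± 6.82 TPM.

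**Figure D1:**
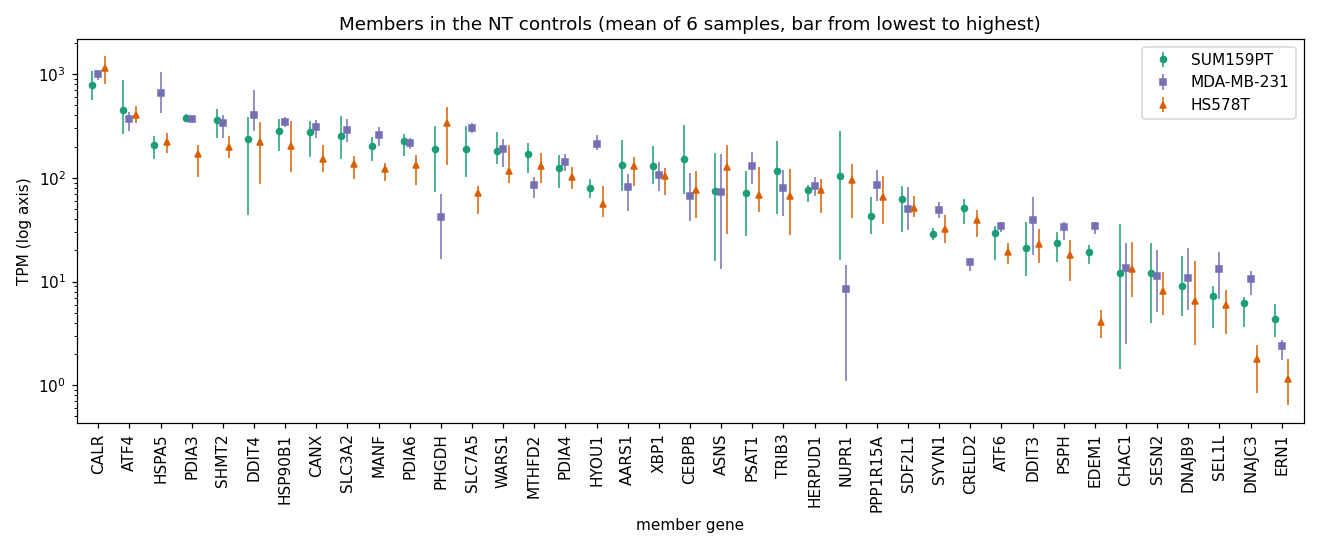
Level of the 39 members in the NT controls, in TPM on a log axis, ordered by their mean. Points are means of 6 NT samples of a line and bars run from the lowest to the highest sample; CALR leads in each line and ERN1 is last.

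Comparisons used edgeR's quasi-likelihood test on all genes, and a member passed where its Benjamini-Hochberg adjusted p was below 0.05. Between the lines, 18 members differed in SUM159PT against MDA-MB-231 (59.4% of all 23416 genes did), 23 in HS578T against MDA-MB-231 (70.2%) and 16 in HS578T against SUM159PT (63.5%), in each case a smaller share of the members than of all genes. These shares of all genes count both directions. Of the ATF4 arm, 8 genes were higher in SUM159PT than in MDA-MB-231 and none was lower. The widest gaps were those of NUPR1, a stress-induced chromatin factor, which was 4.63 ± 0.56 higher on the log2 scale in HS578T than in MDA-MB-231 (SE, adjusted p = 3.3e-09) and 4.10 ± 0.55 higher in SUM159PT than in MDA-MB-231 (adjusted p = 4.1e-08), followed by PHGDH, the first enzyme of serine synthesis, which was 3.75 ± 0.44 higher in HS578T than in MDA-MB-231 (adjusted p = 1.9e-09). Of the ER arm, 10 genes were lower in HS578T than in MDA-MB-231 and 5 were higher. EDEM1, which passes misfolded glycoproteins on to degradation, differed by -2.39 ± 0.15 (adjusted p = 5.1e-18), and DNAJC3, a co-chaperone, by -1.83 ± 0.18 (adjusted p = 4.0e-12). HSPA5, the main ER chaperone BiP, was highest in MDA-MB-231: SUM159PT differed from it by -1.26 and HS578T by -0.76, with adjusted p of 1.2e-07 and 0.00031. The count of 16 was 9 without the NT samples of replicate number 1.

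Under NRP1 knockdown, the members moved in opposite directions in different lines. Over the 12 comparisons of a knockdown group with its NT control, 14 of the 19 ATF4 arm genes and 16 of the 20 ER arm genes passed the test at least once, or 73.7% and 80.0%, beside 69.7% of the 16331 genes tested in every line. In the siRNA groups, the ATF4 arm gave 21 calls that were higher and 6 that were lower, or 18.4% and 5.26% of its tests, and the ER arm 11 higher and 23 lower, or 9.17% and 19.2%. Over all genes, 8.32% of the tests in these groups were called higher and 8.98% lower. In the shRNA groups, the ATF4 arm gave 5 higher and 1 lower, and the ER arm 0 higher and 4 lower, all of them in MDA-MB-231 shNRP1#5, beside 2.31% and 3.03% over all genes. Passing in both directions were PSAT1, SLC3A2, SLC7A5 and TRIB3 of the ATF4 arm, and DNAJC3, EDEM1, ERN1, HSP90B1, HSPA5 and PDIA4 of the ER arm. For PDIA4 both calls were in MDA-MB-231. The share of all genes that passed in both directions was not computed. AARS1, ASNS, NUPR1, PHGDH, PSPH, ATF6, CRELD2, DNAJB9 and SDF2L1 never passed.

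**Figure D2:**
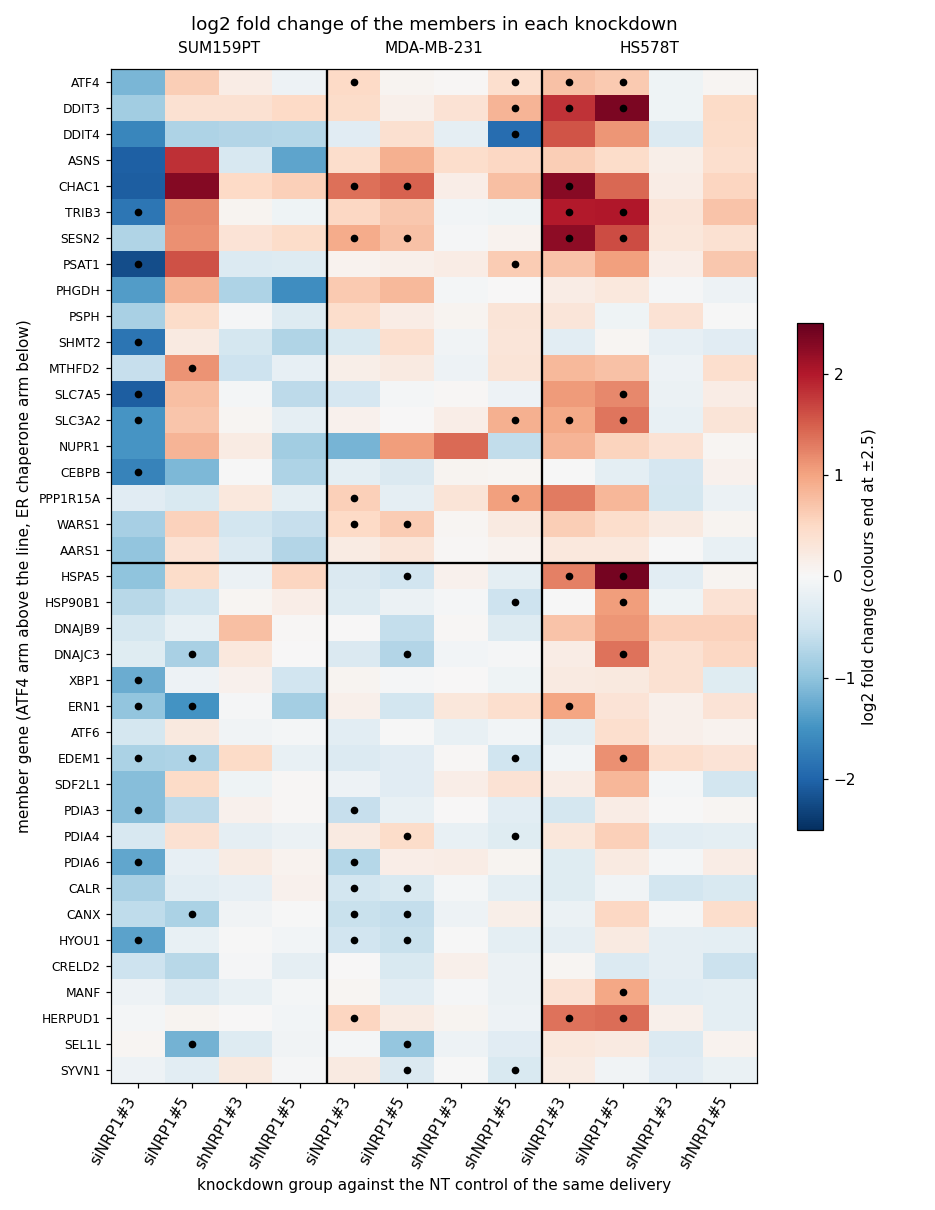
Log2 fold change of each member (rows, ATF4 arm above the black line) in each knockdown group against the NT control of the same delivery (columns, by cell line), with colours ending at ±2.5. Dots mark adjusted p below 0.05: SUM159PT siNRP1#3 has 12 members lower and none higher, and the HS578T siRNA columns have 9 and 12 higher and none lower.

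In HS578T, every member that passed with either siRNA was higher. With siNRP1#3, 6 ATF4 arm genes (ATF4, CHAC1, DDIT3, SESN2, SLC3A2 and TRIB3) and 3 ER arm genes (ERN1, HERPUD1 and HSPA5) were higher and none was lower, where 2.31% of all 19661 genes tested were higher and 2.34% lower. The arm medians were 0.82 and 0.19 on the log2 scale. The mean over the ATF4 arm was above every control in all 3 siNRP1#3 samples, but in the ER arm siNRP1#3 replicate 1, at 0.016 on the log2 scale, lay within the range of siNT, from -0.045 to 0.039, with 8 of the 20 genes above the siNT mean. With siNRP1#5, 6 genes of each arm were higher and none was lower, against 10.1% higher and 8.53% lower among all genes, and the medians were 0.74 and 0.47. After the reads of other lines were subtracted, the count of members called fell to 6 or 7 with siNRP1#3, according to how marker genes were chosen, and was 13 or 14 with siNRP1#5. The calls lost with siNRP1#3 were those of SLC3A2 (adjusted p = 0.068 to 0.070) and ERN1 (adjusted p = 0.060 to 0.063) and, with markers chosen by mean, ATF4. All 12 calls with siNRP1#5 were kept, with EDEM1 at 0.76 or 0.81 on the log2 scale in place of 1.13, and DNAJB9 (adjusted p = 0.028 to 0.031) and, with markers chosen by mean, MTHFD2 were called in addition. The siNRP1#3 count of 9 was 4 without siNRP1#3 replicate 1, and 3, 5 and 4 without siNT replicates 1, 2 and 3.

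In MDA-MB-231, the ATF4 arm genes that passed with siRNA were higher and most of the ER arm genes that passed were lower. With siNRP1#3, 5 ATF4 arm genes (ATF4, CHAC1, PPP1R15A, SESN2 and WARS1) were higher and none lower, while 1 ER arm gene (HERPUD1) was higher and 5 were lower, with 11.4% of all 18800 genes higher and 14.3% lower. The arm medians were 0.44 and -0.20. With siNRP1#5, 3 ATF4 arm genes (CHAC1, SESN2 and WARS1) were higher, 1 ER arm gene (PDIA4) was higher and 7 were lower, beside 14.4% higher and 14.9% lower among all genes, so that the share of the ATF4 arm called was near that of all genes. The medians were 0.31 and -0.32. The mean over the ATF4 arm was -0.063 and -0.13 on the log2 scale in siNRP1#5 replicates 1 and 2, below each siNT sample, and 0.99 in replicate 3, with 7, 5 and 18 of the 19 genes above the siNT mean. With shNRP1#5, 5 ATF4 arm genes (ATF4, DDIT3, PPP1R15A, PSAT1 and SLC3A2) were higher, DDIT4 was lower, and 4 ER arm genes were lower, beside 8.79% higher and 11.9% lower, with medians of 0.31 and -0.19. The siNRP1#3 count of 11 was 7 without siNRP1#3 replicate 1 or 2 or siNT replicate 1, the siNRP1#5 count of 11 was 7 without siNT replicate 2, and the shNRP1#5 count of 10 was 6 without any of its shNRP1#5 samples or shNT replicates 2 or 3.

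In SUM159PT, every member that passed with siNRP1#3 was lower. There 6 ATF4 arm genes (CEBPB, PSAT1, SHMT2, SLC3A2, SLC7A5 and TRIB3) and 6 ER arm genes (EDEM1, ERN1, HYOU1, PDIA3, PDIA6 and XBP1) were lower and none was higher, beside 3.16% higher and 5.50% lower among all 20067 genes. All 19 ATF4 arm genes had a fold change below 0, with a median of -1.47, and 19 of the 20 ER arm genes did, with a median of -0.66. The count of 12 was 5 without siNRP1#3 replicate 1 or 3 and 7 without siNT replicate 1. With siNRP1#5, MTHFD2 was higher and 5 ER arm genes (CANX, DNAJC3, EDEM1, ERN1 and SEL1L) were lower, beside 9.0% higher and 8.89% lower. That count rested on a pair of samples that differed widely, as described below, and the count of 6 was 3 without siNT replicate 1 or 3 and 13 without siNRP1#5 replicate 3.

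In the other 5 shRNA groups no member passed edgeR's quasi-likelihood test. In SUM159PT, shNRP1#3 gave 2 members at an unadjusted p below 0.05 and 0 by DESeq2, where 0.339% of all genes were higher and 1.06% lower. SUM159PT shNRP1#5 gave 4 at an unadjusted p below 0.05 and 1 by DESeq2, beside 3.24% and 2.7%. MDA-MB-231 shNRP1#3 gave 1 and 0, beside 1.46% and 2.19%. HS578T shNRP1#3 gave 0 and 0, beside 0.00509% and 0.0305%, and HS578T shNRP1#5 gave 0 and 0, beside 0.275% and 0.671%.

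**Figure D3:**
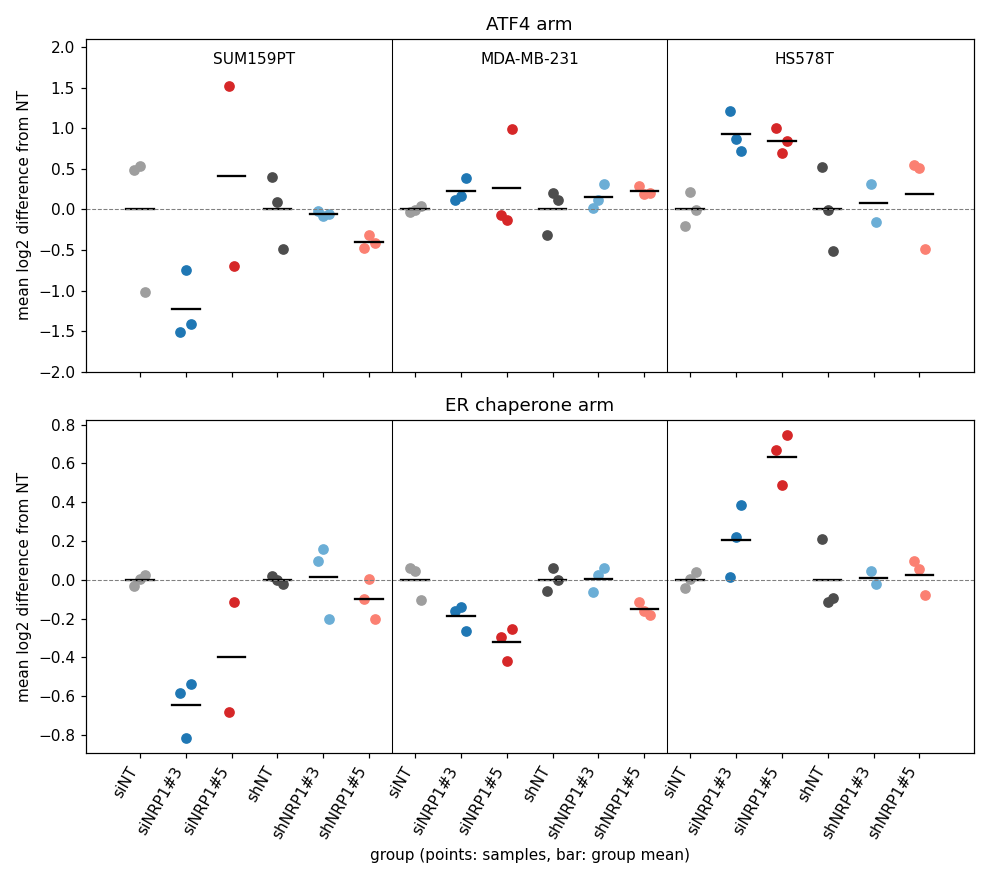
Mean over the 19 ATF4 arm genes (top) and the 20 ER arm genes (bottom) of the log2 difference, on log2(CPM + 0.5), from the NT control of the same delivery, for every sample (points) with the group mean (bar). In SUM159PT siNRP1#5 the 2 samples lie at 1.52 and -0.69 in the ATF4 arm, while the 3 HS578T siNRP1#5 samples lie between 0.49 and 0.75 in the ER arm.

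Replicates of some groups spread more widely in the ATF4 arm than over all genes. In SUM159PT siNRP1#5, the 2 samples differed by a median of 1.84 on the log2 scale over the ATF4 arm and 0.73 over the ER arm, against 0.54 over the 9571 genes with a mean of at least 10 CPM. The arms differed in opposite ways there. Replicate 2 had 931 CPM of ASNS, the asparagine synthetase, and replicate 3 had 52.0, while HSPA5 stood at 273 and 922 CPM and CALR at 301 and 1445. The SUM159PT siNT samples spread as widely, with ASNS at 235, 164 and 25.0 CPM and CHAC1 at 25.7, 46.4 and 1.75, replicate 3 being the low sample in each. The ATF4 arm median of the within-group range was 1.57 there, 1.53 in HS578T shNRP1#5, 1.18 in HS578T shNT and 1.03 in MDA-MB-231 siNRP1#5, where all genes gave 0.61, 0.47, 0.49 and 0.56.

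Among the regulators of the ATF4 arm, ATF4 itself was measured in CPM, counts scaled to library size by the TMM method. In HS578T it stood at 545, 724 and 598 CPM in siNT, at 1164, 988 and 959 with siNRP1#3 and at 1071, 772 and 1108 with siNRP1#5. Every siRNA knockdown sample was above every control. The log2 fold changes were 0.74 ± 0.20 (SE, adjusted p = 0.043) and 0.66 ± 0.20 (adjusted p = 0.029). Both calls were near the threshold: with siNRP1#3 it was lost whichever of the 6 samples was left out (adjusted p = 0.058 to 0.17), and after subtraction with markers chosen by mean (adjusted p = 0.054), and with siNRP1#5 it was lost without siNRP1#5 replicate 1 or 3 or siNT replicate 1 or 3 (adjusted p = 0.088 to 0.10).

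In MDA-MB-231, ATF4 stood at 317, 388 and 350 CPM in siNT, at 477, 468 and 522 with siNRP1#3 and at 282, 337 and 466 with siNRP1#5. The siNRP1#3 samples did not overlap the controls, with a log2 fold change of 0.50 ± 0.14 (adjusted p = 0.013), and the call was lost without siNRP1#3 replicate 3 or siNT replicate 1 (adjusted p = 0.065 at most). The siNRP1#5 samples overlapped them (0.06 ± 0.14, adjusted p = 0.78). With shNRP1#5 the values were 337, 325 and 337 CPM against 223, 270 and 255 in shNT, higher in each sample, at 0.42 ± 0.14 (adjusted p = 0.038), a call lost whichever of those 6 samples was left out (adjusted p = 0.056 to 0.14). In SUM159PT, the siNT samples had 704, 1112 and 272 CPM, siNRP1#3 had 198, 503 and 243, and siNRP1#5 had 1651 and 461. These groups overlapped, and neither difference passed (-1.14 ± 0.48, adjusted p = 0.15, and 0.62 ± 0.52, adjusted p = 0.44).

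DDIT3, which encodes the transcription factor CHOP, showed the clearest difference of the arm in HS578T. It stood at 22.0, 28.5 and 20.7 CPM in siNT, at 81.8, 92.0 and 74.7 with siNRP1#3, and at 96.4, 104 and 166 with siNRP1#5. All knockdown samples lay above all controls, with log2 fold changes of 1.80 ± 0.24 (adjusted p = 0.00047) and 2.36 ± 0.24 (adjusted p = 3.7e-05). Both calls held in all 6 fits that left out a sample, and the second was 2.66 or 2.68 after the reads of other lines were subtracted. In HS578T shNRP1#5 it was 24.5, 21.1 and 17.4 CPM against 18.9, 12.9 and 13.0 in shNT, groups that overlapped (0.48 ± 0.23, adjusted p = 0.27). Each shNRP1#5 sample was above the shNT sample of its replicate number, by which these groups were paired. The fit with a replicate block did not pass either.

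In MDA-MB-231, DDIT3 was higher with shNRP1#5, at 23.3, 19.0 and 21.4 CPM against 8.41, 13.9 and 13.0 in shNT, with no overlap (0.86 ± 0.20, adjusted p = 0.0054). With siNRP1#3 it had 37.4, 38.8 and 33.9 CPM and with siNRP1#5 30.9, 22.3 and 34.3, against 31.4, 28.8 and 20.5 in siNT (adjusted p = 0.092 and 0.66). In SUM159PT the siNT samples had 23.6, 28.5 and 7.22 CPM and the siNRP1#5 samples 47.0 and 3.72, so that the knockdown samples lay on both sides of the controls. With siNRP1#3 it had 10.2, 12.5 and 9.88 CPM, within the range of the controls (-0.86 ± 0.63, adjusted p = 0.43).

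TRIB3, a pseudokinase that restrains AKT and is induced by ATF4 with CHOP, went both ways. In HS578T it stood at 175, 266 and 135 CPM in siNT, 1174, 694 and 392 with siNRP1#3, and 1173, 690 and 443 with siNRP1#5. Each knockdown sample was above the highest control, with log2 fold changes of 1.97 ± 0.49 (adjusted p = 0.029) and 2.00 ± 0.49 (adjusted p = 0.010). The first was lost without siNRP1#3 replicate 1 or 2 or any siNT replicate (adjusted p = 0.050 to 0.15), and the second without siNT replicate 3 (adjusted p = 0.054). In SUM159PT it was lower with siNRP1#3 (-1.80 ± 0.53, adjusted p = 0.045), at 56.7, 106 and 74.7 CPM against 326, 423 and 83.1, and here the groups overlapped through siNT replicate 3.

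CHAC1 and SESN2, the latter a sensor that restrains mTORC1 when leucine is short, were higher with siRNA in both HS578T and MDA-MB-231. SESN2 passed with both siRNAs in each of these lines, and CHAC1 with both in MDA-MB-231 but only with siNRP1#3 in HS578T. In HS578T, SESN2 stood at 25.8, 47.8 and 36.7 CPM in siNT and at 251, 135 and 136 with siNRP1#3, a log2 fold change of 2.24 ± 0.32 (adjusted p = 0.00093), and at 122, 104 and 116 with siNRP1#5 (1.63 ± 0.32, adjusted p = 0.0026). The knockdown samples were well clear of the controls. In MDA-MB-231 it had 43.1, 41.9 and 26.6 CPM in siNT, 67.3, 65.0 and 77.6 with siNRP1#3 (0.93 ± 0.21, adjusted p = 0.0035) and 43.2, 52.5 and 88.5 with siNRP1#5 (0.74 ± 0.21, adjusted p = 0.013). All were above the controls, siNRP1#5 replicate 1 only just, and the last call was lost without siNRP1#5 replicate 3 or siNT replicate 3 (adjusted p = 0.073 to 0.11).

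CHAC1 in HS578T stood at 10.3, 29.2 and 15.0 CPM in siNT and at 117, 74.9 and 70.8 with siNRP1#3 (2.27 ± 0.56, adjusted p = 0.031), with no overlap. That call was lost without siNRP1#3 replicate 1 or siNT replicate 1 or 3 (adjusted p = 0.12). With siNRP1#5, CHAC1 did not pass in HS578T. In MDA-MB-231 it had 20.1, 21.5 and 15.9 CPM in siNT, 38.5, 42.7 and 65.3 with siNRP1#3 (1.37 ± 0.46, adjusted p = 0.041) and 31.2, 23.5 and 104 with siNRP1#5 (1.47 ± 0.46, adjusted p = 0.026). Every knockdown sample was above every control there. The first call was lost whichever sample was left out (adjusted p = 0.056 to 0.13), and the second without siNRP1#5 replicate 3 or any siNT replicate (adjusted p = 0.056 to 0.22). Without siNRP1#5 replicate 3 the second fold change was 0.54 on the log2 scale. In SUM159PT siNRP1#5 the samples had 231 and 7.11 CPM, on both sides of siNT at 25.7, 46.4 and 1.75.

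**Figure D4:**
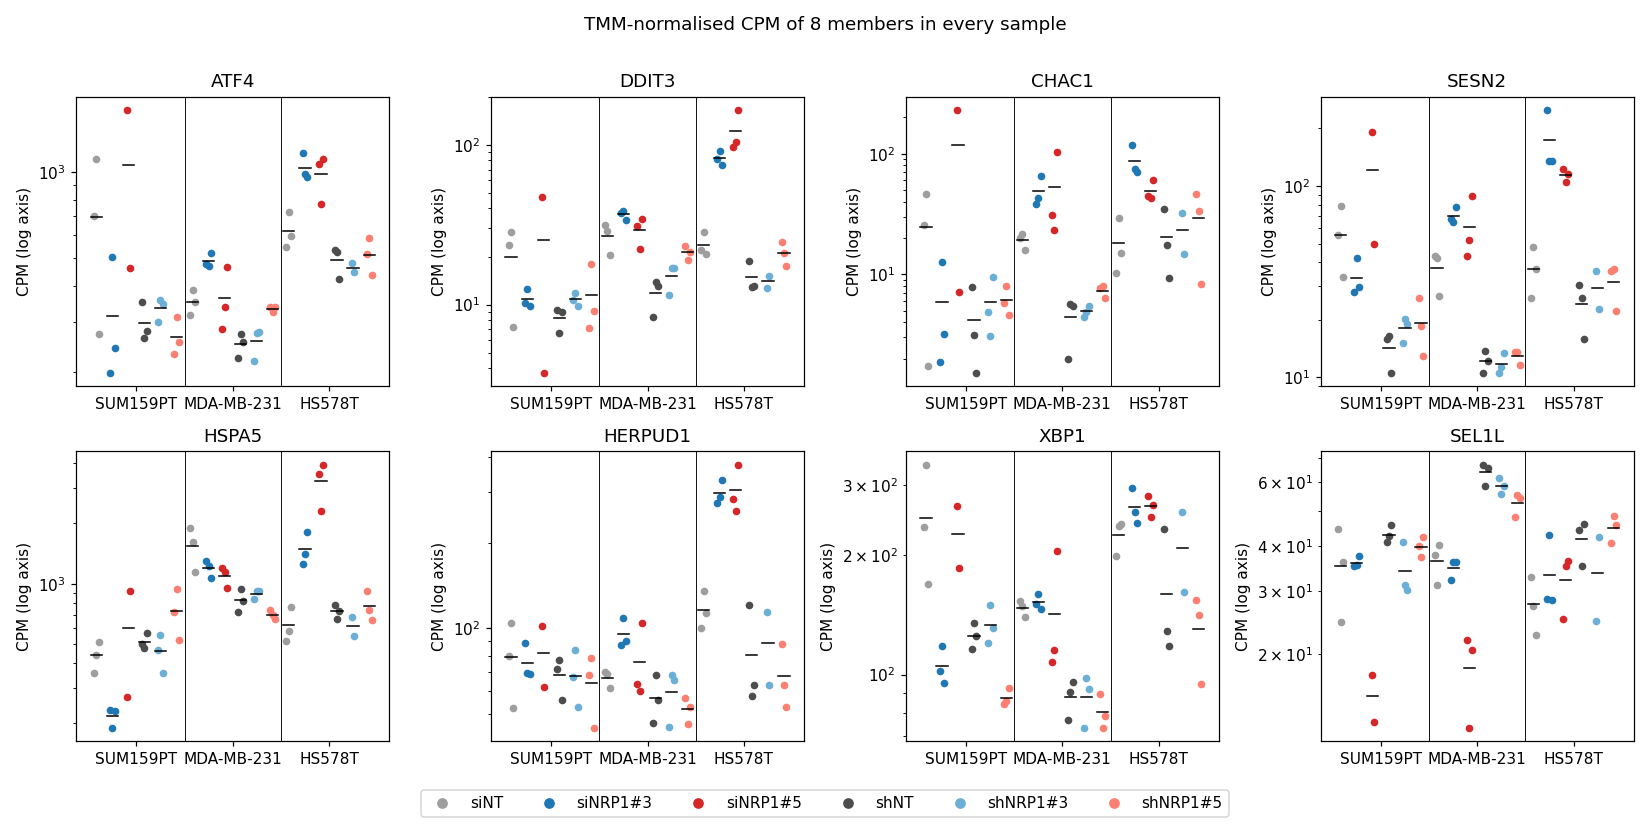
TMM-normalised CPM, on log axes, of 4 ATF4 arm genes (top) and 4 ER arm genes (bottom) in every sample (points) with group means (bars), by cell line and treatment. HSPA5 lies between 2298 and 3944 CPM in HS578T siNRP1#5 and at 767 or below in its siNT controls, while SEL1L lies between 12.5 and 21.9 CPM in SUM159PT and MDA-MB-231 siNRP1#5.

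The genes of serine, glycine and asparagine synthesis did not follow the regulators in every line. PSAT1, the second enzyme of serine synthesis, was lower in SUM159PT siNRP1#3, at 14.9, 42.3 and 19.6 CPM against 198, 115 and 45.1 in siNT, and the groups did not overlap (-2.21 ± 0.65, adjusted p = 0.045). This call was lost without siNRP1#3 replicate 1 or 3 or siNT replicate 1 or 2 (adjusted p = 0.083 to 0.17). SHMT2, which makes glycine in mitochondria, was lower in the same comparison, at 150, 183 and 142 CPM against 618, 747 and 323, with every knockdown sample below every control (-1.82 ± 0.33, adjusted p = 0.0030) and the call kept in all 6 fits that left out a sample. PSAT1 was higher in MDA-MB-231 shNRP1#5 (0.64 ± 0.17, adjusted p = 0.011).

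MTHFD2, a mitochondrial folate enzyme, had 515 and 150 CPM in SUM159PT siNRP1#5 against 221, 139 and 105 in siNT. The log2 fold change of 1.12 ± 0.38 passed (adjusted p = 0.048), but 1 of the 2 samples lay among the controls, and without siNRP1#5 replicate 2 the fold change was -0.079. The call was also lost without siNT replicate 2 or 3 (adjusted p = 0.11 to 0.90 in those 3 fits). ASNS, PHGDH and PSPH, the last enzyme of serine synthesis, passed in no knockdown comparison. Their fold changes in HS578T lay between -0.10 and 0.61 with either siRNA, and those of ASNS in SUM159PT were -2.04 with siNRP1#3 and 1.82 with siNRP1#5.

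SLC7A5 and SLC3A2 encode the light and heavy chains of the LAT1 transporter of large neutral amino acids. In SUM159PT siNRP1#3, SLC7A5 stood at 116, 206 and 155 CPM against 1063, 607 and 327 in siNT, below each control (-2.06 ± 0.53, adjusted p = 0.026). That call was lost without siNRP1#3 replicate 1 or 3 or siNT replicate 1 (adjusted p = 0.081 to 0.12). SLC3A2 was lower in the same group (-1.48 ± 0.39, adjusted p = 0.028) and higher in HS578T with siNRP1#3 (0.96 ± 0.26, adjusted p = 0.045) and siNRP1#5 (1.34 ± 0.26, adjusted p = 0.0027). In MDA-MB-231 shNRP1#5 it had 511, 483 and 427 CPM against 244, 288 and 234 in shNT, with no overlap (0.90 ± 0.16, adjusted p = 0.00095).

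Of the tRNA synthetases, WARS1 was higher in MDA-MB-231 with both siRNAs (0.49 ± 0.18, adjusted p = 0.049, and 0.64 ± 0.18, adjusted p = 0.011), and AARS1 passed nowhere. PPP1R15A, or GADD34, returns eIF2 alpha to its active state and so ends the translation block. In MDA-MB-231 shNRP1#5 it stood at 211, 180 and 193 CPM against 94.9, 114 and 80.6 in shNT, clear of the controls (1.02 ± 0.17, adjusted p = 0.00042). DDIT4, an mTORC1 inhibitor also called REDD1, moved the other way in that group, at 110, 62.1 and 85.6 CPM against 284, 320 and 364 (-1.90 ± 0.41, adjusted p = 0.0054). Both calls held in all 6 fits that left out a sample. CEBPB, a partner of ATF4, was lower in SUM159PT siNRP1#3 (-1.67 ± 0.39, adjusted p = 0.015).

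Among the sensors of the ER arm, ERN1 was lower in SUM159PT siNRP1#5, at 12.5 and 9.18 CPM against 31.6, 41.3 and 19.2 in siNT, and neither sample overlapped the controls (-1.49 ± 0.34, adjusted p = 0.0078). That call was lost without siNRP1#5 replicate 3 (adjusted p = 0.062). It was lower in SUM159PT siNRP1#3 as well (-0.99 ± 0.29, adjusted p = 0.043) and higher in HS578T siNRP1#3 (0.98 ± 0.26, adjusted p = 0.042). ATF6, the second sensor, passed in no knockdown comparison of a single line.

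HSPA5 gave the largest difference of the ER arm. In HS578T it stood at 519, 578 and 767 CPM in siNT, at 1249, 1410 and 1808 with siNRP1#3, and at 3521, 2298 and 3944 with siNRP1#5. The 3 groups did not overlap. The log2 fold changes were 1.26 ± 0.24 (adjusted p = 0.0058) and 2.39 ± 0.25 (adjusted p = 3.7e-05), and both calls held in all 6 fits that left out a sample. After the reads of other lines were subtracted they were 1.31 or 1.33 and 2.67 or 2.72. The MDA-MB-231 siNRP1#5 samples, at 1198, 1142 and 954 CPM, were all below the HS578T siNRP1#5 samples.

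In MDA-MB-231 HSPA5 was lower with siNRP1#5, against 1890, 1618 and 1147 CPM in siNT (-0.48 ± 0.15, adjusted p = 0.024), with siNRP1#5 replicate 1 above the lowest control and the other 2 samples below it. The call was lost without siNRP1#5 replicate 3 or siNT replicate 1 or 2 (adjusted p = 0.063 to 0.18). With siNRP1#3 the values were 1303, 1230 and 1063 CPM, which overlapped the controls (-0.35 ± 0.15, adjusted p = 0.10). In SUM159PT, siNRP1#3 had 234, 190 and 231 CPM against 359, 441 and 512 in siNT, lower in each sample. The difference did not pass edgeR's test (-1.0 ± 0.33, adjusted p = 0.067), but it passed with DESeq2 (adjusted p = 0.030), in a model of the compared groups alone (adjusted p = 0.027) and without the low-count filter (adjusted p = 0.0019). The siNRP1#5 samples had 273 and 922 CPM. In the shRNA groups of HS578T, HSPA5 was 682 and 550 CPM with shNRP1#3 and 918, 739 and 655 with shNRP1#5, against 787, 669 and 726 in shNT, and these overlapped. By replicate number, each shNRP1#3 sample was below its shNT sample, while the shNRP1#5 samples lay on either side. Neither comparison passed with a replicate block.

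The other chaperones and co-chaperones passed in fewer comparisons. HSP90B1 (GRP94), DNAJC3 and the secreted chaperone MANF were higher in HS578T siNRP1#5 by 1.04 ± 0.33, 1.37 ± 0.31 and 0.96 ± 0.17 (adjusted p = 0.035, 0.0069 and 0.0016). DNAJC3 was lower with siNRP1#5 in MDA-MB-231 (-0.74 ± 0.16, adjusted p = 0.0018) and SUM159PT (-0.81 ± 0.26, adjusted p = 0.041). HYOU1, a large chaperone and nucleotide exchange factor for BiP, was lower in SUM159PT siNRP1#3 (-1.33 ± 0.19, adjusted p = 0.00070) and in MDA-MB-231 with siNRP1#3 and siNRP1#5 (-0.48 and -0.56). DNAJB9, CRELD2 and SDF2L1 passed in no knockdown comparison.

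Of the 3 disulfide isomerases, which form and rearrange disulfide bonds, PDIA3 and PDIA6 were lower with siNRP1#3 in MDA-MB-231 and SUM159PT, PDIA4 did not pass with it, and none of the 3 passed in HS578T. PDIA6 in MDA-MB-231 stood at 170.0, 189 and 174 CPM against 289, 317 and 281 in siNT, with no overlap (-0.71 ± 0.10, adjusted p = 3.4e-05), and in SUM159PT at 167, 124 and 179.6 against 369, 351 and 438, again with none (-1.3 ± 0.22, adjusted p = 0.0023). PDIA3, the isomerase that works with the lectin chaperones, differed by -0.58 ± 0.10 and -1.06 ± 0.20 in the same order of lines (adjusted p = 0.00027 and 0.0045). PDIA4 was higher in MDA-MB-231 siNRP1#5 (0.45 ± 0.11) and lower in shNRP1#5 (-0.31 ± 0.11). The lectin chaperones CALR and CANX were lower in MDA-MB-231 with both siRNAs, with log2 fold changes from -0.59 to -0.38.

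Among the genes of ER-associated degradation, HERPUD1, which gathers the ubiquitin ligase complex, followed HSPA5 in HS578T, and SEL1L, the scaffold of that ligase, was lower with siNRP1#5 in the other 2 lines. HERPUD1 in HS578T was higher with siNRP1#3 (1.36 ± 0.29, adjusted p = 0.012) and siNRP1#5 (1.40 ± 0.29, adjusted p = 0.0037), and in MDA-MB-231 with siNRP1#3 (0.53 ± 0.19, adjusted p = 0.043). SEL1L stood at 17.6 and 13.0 CPM in SUM159PT siNRP1#5 against 44.6, 24.6 and 36.1 in siNT (-1.18 ± 0.24, adjusted p = 0.0045). In MDA-MB-231 it stood at 21.9, 12.5 and 20.5 CPM against 37.7, 31.1 and 40.3 (-0.97 ± 0.16, adjusted p = 0.00014). Neither line's groups overlapped, and both calls held in every fit that left out a sample. SYVN1, the ligase HRD1, was lower in MDA-MB-231 with siNRP1#5 (-0.36 ± 0.12) and shNRP1#5 (-0.38 ± 0.12), and EDEM1 was lower in SUM159PT with both siRNAs and higher in HS578T siNRP1#5 (1.13 ± 0.23, adjusted p = 0.0029).

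XBP1 encodes the transcription factor that IRE1 activates by splicing. Its gene level was lower in SUM159PT siNRP1#3, at 102, 118 and 95.1 CPM against 235, 338 and 169 in siNT, with no overlap (-1.23 ± 0.23, adjusted p = 0.0033, kept in all 6 fits that left out a sample). Elsewhere it did not pass: the HS578T siNT samples had 199, 236 and 239.7 CPM, siNRP1#3 had 295, 257 and 241, and siNRP1#5 had 283, 249 and 267.

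IRE1 removes 26 bases from the XBP1 message. In the annotation this gap lies at chr22:28796128-28796153 on the minus strand of GRCh38. Of the 6 annotated transcripts, XBP1-202 is the coding one that lacks these bases. A gap placed a single base further along the gene would leave the same message, because a G both starts the segment and follows it. The segment is shown with 40 bases on each side because the share of XBP1-202 was used as a readout of the splicing. Capitals mark the 26 bases of the annotated gap.
XBP1 segment: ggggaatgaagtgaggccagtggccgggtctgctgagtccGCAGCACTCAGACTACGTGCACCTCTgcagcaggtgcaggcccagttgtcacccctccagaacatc

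XBP1-202 made up 2.94% to 38.7% of the TPM of the gene, with a mean of 14.3% over the 52 samples, and the unspliced XBP1-201 a mean of 63.3%. No difference in its share between knockdown and control, or between the controls, passed an exact two-sided permutation test within the 3 lines, with p adjusted over 5 tests. By that exact permutation test, the mean differences were 1.44 percentage points with siNRP1#3 (p = 0.59, adjusted 0.74), -6.49 with siNRP1#5 (p = 0.083, adjusted 0.42), -0.75 with shNRP1#3 (p = 0.74, adjusted 0.74) and 0.92 with shNRP1#5 (p = 0.70, adjusted 0.74). The design could have given a p of 0.0005 or less. Taken as a share of XBP1-201 and XBP1-202 alone, the siNRP1#5 difference was -9.55 points (unadjusted p = 0.016).

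The HS578T siNRP1#3 samples had 18.5% to 20.2% and the siNRP1#5 samples 7.61% to 9.29%, beside 6.08% to 15.6% in siNT, so that the first group lay above its controls while HSPA5 was higher in both. In MDA-MB-231 the siNT samples had a mean of 31.6% ± 9.42 (SD, n = 3) and the shNT samples 9.08% ± 2.79, and these did not overlap. In the other 2 lines shNT and siNT differed by 6.13 points in SUM159PT and -0.92 in HS578T, and over the 3 lines by -5.78 (exact permutation p = 0.18, adjusted 0.45), or -11.7 without SUM159PT (p = 0.04). The share is an estimate from reads most of which fit several transcripts. Reads of other lines in the HS578T siRNA knockdown samples were not subtracted from it, and their part in it was not tested.

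**Figure D5:**
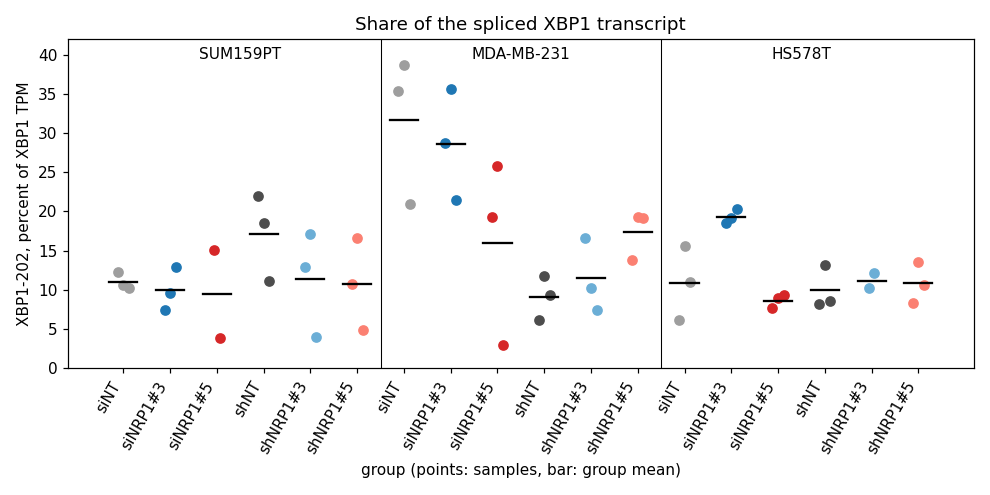
Share of the spliced transcript XBP1-202 in percent of the TPM of XBP1, for every sample (points) with the group mean (bar), by cell line and treatment. MDA-MB-231 siNT lies between 20.9% and 38.7% and shNT between 6.17% and 11.7%, with no overlap.

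The effects were next averaged over the 3 lines with equal weight. With siNRP1#3, SESN2 was higher and CEBPB and SHMT2 were lower in the ATF4 arm, and in the ER arm HERPUD1 was higher and 7 genes were lower, with 10.2% of all 23416 genes higher and 11.1% lower. In the ATF4 arm the share lower was thus near that of all genes, and the share higher was below it. SHMT2 had -0.83 ± 0.14 (adjusted p = 3.2e-05), SESN2 0.80 ± 0.20 (adjusted p = 0.0026) and PDIA6 -0.78 ± 0.11 (adjusted p = 1.5e-06). Without SUM159PT the SHMT2 call was lost, and without HS578T or replicate number 1 the SESN2 call was lost. With siNRP1#5, 9 ATF4 arm genes were higher and CEBPB was lower, and 3 ER arm genes were higher and 4 lower, with 17.1% of all genes higher and 13.2% lower. The share of the ER arm that was higher was near that of all genes. CHAC1 had 1.73 ± 0.50 (adjusted p = 0.0074), TRIB3 1.28 ± 0.29 (adjusted p = 0.00076) and SESN2 1.16 ± 0.20 (adjusted p = 2.9e-05), the last kept in each fit that left out a replicate number. The CHAC1 call was lost without SUM159PT (1.45, adjusted p = 0.077) and without replicate number 1 or 2 (adjusted p = 0.088 to 0.27), with a mean of 1.00 without number 2, and that of TRIB3 without number 2 (adjusted p = 0.054). The siNRP1#3 count of 11 was 5 without replicate number 1, and the siNRP1#5 count of 17 was 9 and 5 without numbers 1 and 2. The mean of HSPA5 rested on HS578T: it was 0.78 ± 0.15 over the 3 lines (adjusted p = 0.00011) and -0.024 without HS578T. With shNRP1#3, no member passed edgeR's test (3 at an unadjusted p below 0.05, 0 by DESeq2), with 2.66% of all genes higher and 3.25% lower, and with shNRP1#5 none did either (3 and 0), with 7.35% higher and 8.19% lower.

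The differences between the lines were tested directly. With siNRP1#3, the effect differed between lines for 13 members, 9 of the ATF4 arm and 4 of the ER arm, where 3.42% of all genes differed. With siNRP1#5 it differed for 11, of which 10 were ER arm genes and the other was DDIT3, beside 18.2% of all genes. Without replicate numbers 1 and 2 in turn, these counts were 0 and 4 with siNRP1#3 and 7 and 7 with siNRP1#5. ERN1 alone differed with shNRP1#5 (3.81% of all genes) and no member with shNRP1#3 (0.747%, 0 members also at an unadjusted p below 0.05; DESeq2 was not run for this test).

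The siNRP1#5 and shNRP1#5 reagents share their sequence, and their effects were compared within each line. In HS578T the siRNA effect exceeded the shRNA effect for DDIT3 by 1.88 ± 0.33 (adjusted p = 0.016), for HSPA5 by 2.31 ± 0.33 (adjusted p = 0.0041) and for MANF by 1.21 ± 0.24 (adjusted p = 0.026), where 0.854% of all genes differed, a count of 3 that was 1 without shNRP1#5 replicate 2 or siNT replicate 1. In MDA-MB-231, 8 members differed beside 23.7% of all genes, so that their share was near that of all genes. Among them were DDIT4 (2.29 ± 0.57, adjusted p = 0.0097) and PPP1R15A (-1.25 ± 0.24, adjusted p = 0.00083). The count was 5 without shNRP1#5 replicate 2 or 3, shNT replicate 2 or 3, or siNT replicate 1. In SUM159PT none passed (8 at an unadjusted p below 0.05, 2 by DESeq2), beside 2.51%, and 2, 6 and 1 passed without siNRP1#5 replicate 2, siNRP1#5 replicate 3 and siNT replicate 2.

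The number 5 and number 3 reagents were also compared directly. In SUM159PT, 15 ATF4 arm genes were higher with siNRP1#5 than with siNRP1#3 and none lower, and 6 ER arm genes were higher and SEL1L was lower, beside 29.7% of all genes that differed in either direction. The widest was CHAC1 with 4.35 ± 1.26 (adjusted p = 0.018). The count of 22 members fell to 11 without siNRP1#5 replicate 2. In HS578T, no ATF4 arm gene differed between the siRNAs (1 at an unadjusted p below 0.05, 0 by DESeq2), where 18.1% of all genes differed in either direction. There 7 ER arm genes were higher with siNRP1#5: ATF6, CANX, DNAJC3, EDEM1, HSP90B1, HSPA5 and MANF. Over both arms together, the share of members that differed was near that of all genes. HSPA5 differed there by 1.13 ± 0.24 (adjusted p = 0.0050). After subtraction all 7 were kept, and DDIT3 was higher and PSPH lower with siNRP1#5 in addition. The count of 7 was 2 and 4 without siNRP1#3 replicates 1 and 3 and 3 without siNRP1#5 replicate 3. In MDA-MB-231, 9 members differed between the siRNAs (39% of all genes) and 8 between the shRNAs (14.2%). The first count was 14 without siNRP1#5 replicate 3, and the second was between 2 and 5 without any of the 6 shRNA knockdown samples. Between the shRNAs, none differed in SUM159PT (8.71% of all genes; 4 at an unadjusted p below 0.05, 1 by DESeq2) or HS578T (0.544%; 2 and 0).

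The NT controls themselves differed between the delivery routes, most of all in MDA-MB-231. There 16 of the 19 ATF4 arm genes were lower in shNT than in siNT and none higher, and 6 ER arm genes were lower and SEL1L was higher, beside 10.7% of all genes higher and 9.85% lower. NUPR1 stood at 0.52, 2.28 and 1.66 CPM in shNT against 6.61, 6.45 and 7.20 in siNT (-2.21 ± 0.60, adjusted p = 0.018), CHAC1 at 1.97, 5.73 and 5.51 against 20.1, 21.5 and 15.9 (-2.15 ± 0.48, adjusted p = 0.0059), and ASNS at 12.8, 38.8 and 39.6 against 113, 79.0 and 187 (-2.09 ± 0.56, adjusted p = 0.018). None of these groups overlapped. ATF4 (-0.52), DDIT3 (-1.22), HSPA5 (-0.93) and XBP1 (-0.78) were lower as well. The ASNS and NUPR1 calls were lost without shNT replicate 1, or without siNT replicate 3 for ASNS and shNT replicate 3 for NUPR1 (adjusted p = 0.0544 to 0.0615), and that of ATF4 without shNT replicate 1 or siNT replicate 2 (adjusted p = 0.063 at most).

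In SUM159PT, 2 ATF4 arm and 2 ER arm genes were lower in shNT and none higher, beside 5.96% of all genes higher and 8.45% lower. The share of members lower was thus near that of all genes, and the share higher was below it. SESN2 stood at 15.8, 16.5 and 10.6 CPM against 55.4, 78.2 and 33.4 in siNT (-1.99 ± 0.43, adjusted p = 0.0098), DNAJB9 at 7.78, 8.06 and 7.79 against 28.8, 23.9 and 15.4 (-1.55 ± 0.27, adjusted p = 0.0040), and CEBPB at 118, 148 and 95.6 against 256, 555 and 185 (-1.49 ± 0.39, adjusted p = 0.021). XBP1 was lower too (-1.01 ± 0.22, adjusted p = 0.011). The groups did not overlap for any of them. Without shNT replicate 3 the calls of SESN2, XBP1 and CEBPB were lost (adjusted p = 0.061 and 0.057 for the first 2 and at most 0.10 for CEBPB), and that of CEBPB also without shNT replicate 1 or siNT replicate 2. In HS578T, PSPH was higher and CEBPB, DNAJB9 and ERN1 were lower, beside 9.14% higher and 8.80% lower. Here too the share of members lower was near that of all genes, and the share higher was below it. DNAJB9, an early target of spliced XBP1, stood at 10.8, 4.09 and 4.44 CPM against 29.3, 22.7 and 10.9, with shNT replicate 1 just below the lowest control (-1.69 ± 0.39, adjusted p = 0.0086). CEBPB stood at 79.2, 104 and 81.4 CPM against 173, 194 and 230.2 (-1.15 ± 0.26, adjusted p = 0.0080) and ERN1 at 4.45, 3.98 and 3.55 against 8.82, 8.03 and 9.14 (-1.10 ± 0.27, adjusted p = 0.011, and 0.053 without shNT replicate 3). The SUM159PT count of 4 was 1 without shNT replicate 3 and 8 without siNT replicate 3, and the HS578T count of 4 was 9 without shNT replicate 1. Delivery, selection and time of harvest changed together between these controls and cannot be told apart, and in bulk RNA fewer expressing cells and less RNA per cell cannot be told apart either.

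Beyond the members, 2 wider lists were read, of 43 genes of the ATF4 and amino acid response and 57 genes of ER folding and transport. In the mean over lines, siNRP1#5 gave 16 of the 43 genes higher and 3 lower, and 9 of the 57 higher and 7 lower, where 17.1% of all genes were higher and 13.2% lower, so that the second list was near the share of all genes in both directions. GDF15, a stress-induced cytokine, had 1.44 ± 0.48 (adjusted p = 0.021) and ALDH1L2, a mitochondrial folate enzyme, -1.18 ± 0.40 (adjusted p = 0.022). ALDH1L2 was near the floor in MDA-MB-231 and SUM159PT, at 0.7 CPM or below in siNRP1#5 and siNT. GDF15 was clear of siNT in HS578T alone, at 164, 82.6 and 69.0 CPM against 12.6, 15.5 and 8.64. In MDA-MB-231 it had 26.3, 14.9 and 164 CPM against 15.0, 10.5 and 24.4. In SUM159PT it had 321 and 25.3 CPM against 289, 564 and 71.3. CREB3L2, an ER-bound transcription factor, had -0.88 ± 0.15 (adjusted p = 2.0e-05). With siNRP1#3, 4 and 4 genes of the first list were higher and lower, and 4 and 12 of the second, beside 10.2% higher and 11.1% lower among all genes. The first list was thus near the share of all genes in both directions. SHMT1, the cytosolic relative of SHMT2, had -1.36 ± 0.14 (adjusted p = 1.0e-09) and SLC6A9, a glycine transporter, -0.82 ± 0.25 (adjusted p = 0.013).

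ATF6B, the close relative of ATF6, was the gene of the wider lists with the lowest mean fold change past the threshold with siNRP1#5. It stood at 7.68 ± 2.77 CPM against 111 ± 18.2 in siNT in SUM159PT (n = 2 and 3), at 16.0 ± 1.38 against 81.9 ± 5.23 in MDA-MB-231, and at 20.6 ± 3.31 against 72.7 ± 9.78 in HS578T (SD, n = 3). The log2 fold changes were -3.83, -2.34 and -1.82, with adjusted p of 8.7e-06, 3.8e-11 and 0.00015, and the mean was -2.67 ± 0.12. With shNRP1#5, which shares the sequence, it was lower in SUM159PT (-1.38, adjusted p = 0.0020) and MDA-MB-231 (-0.46, adjusted p = 0.0034) and had -0.90 in HS578T (adjusted p = 0.065). With siNRP1#3 it passed in HS578T only (-0.80, adjusted p = 0.0497).

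SSR3, a subunit of the translocon-associated protein complex, and TXNDC5, a disulfide isomerase, were reduced with siNRP1#3. SSR3 stood at 27.7 ± 3.67 CPM against 124 ± 27.6 in SUM159PT and at 86.2 ± 19.8 against 249 ± 39.5 in MDA-MB-231 (SD, n = 3), or -2.16 and -1.51 on the log2 scale (adjusted p = 0.00014 and 1.3e-05), and -0.41 in HS578T (adjusted p = 0.295). TXNDC5 had -1.44, -0.80 and -0.60 in the 3 lines, with adjusted p of 0.00038, 6.7e-06 and 0.053. With shNRP1#3, whose sequence differs, neither gene passed in any line. In the mean with shNRP1#3, STC2, a secreted glycoprotein, and EIF2AK3, which encodes PERK, were higher (1.29 ± 0.36 and 0.93 ± 0.13) and LMAN1, a cargo receptor, was lower (-0.89 ± 0.19). STC2 passed in no single line, with 0.81, 2.96 and 0.05 in SUM159PT, MDA-MB-231 and HS578T. In MDA-MB-231 it was near the floor, at 0.78, 1.51 and 8.33 CPM against 0.47, 0.50 and 0.40 in shNT. The sample at 8.33 CPM also held transcripts of HS578T (2.05%, markers chosen by mean) and SUM159PT (2.48%). Their part in this value was not tested. In the mean with shNRP1#5, CEBPG and ATF3, both partners or targets of ATF4, had 0.75 ± 0.21 and 0.60 ± 0.19, and DNAJC1, an ER co-chaperone, had 0.74 ± 0.14.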

How the data were processed

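RNA-seq of 52 samples in 18 groups was read from the tables that the authors deposited. Per the labels and the methods of the study, the authors checked reads with FastQC 0.11.9, trimmed them with Trim Galore 0.6.5, aligned them to GRCh38 with STAR 2.7.2b and estimated abundance with RSEM 1.3.3. They deposited expected counts and TPM per gene and per transcript, and the percent of a gene's TPM that each transcript holds, with 1 column per sample. Reads carried no molecular identifiers.

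The 39 members, both arms and both wider lists were chosen with earlier results of these data known. Expected counts were rounded, filtered with filterByExpr, scaled by TMM and tested per line over all 6 groups with edgeR 4.0.16 (quasi-likelihood, robust, R 4.3.3), with Benjamini-Hochberg adjustment over all genes tested and a threshold of 0.05. Means over lines, differences between lines and comparisons of NT controls of 2 lines used 1 model of all samples. ± is the SE unless SD is named. Full statistics are given for ATF4, DDIT3, HSPA5 and XBP1, for up to 3 members per knockdown, mean or NT comparison with the largest absolute fold change among those past the threshold, and for up to 2 wider-list genes per mean comparison. Other members were named by their role after their values were seen.

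The spliced XBP1 transcript was identified by its exons, and its share was tested by exact permutation within lines. RNA of another line in a sample was estimated from genes at most 0.5 CPM in all NT controls of the sample's line and at least 20 CPM in all those of the other, and a variant that used means of the controls was added after seeing the data. The estimated share of the other line's counts was then subtracted. Other alternatives were DESeq2 1.42.0, in which an adjusted p given as NA stayed NA, limma 3.58.1 on log2(TPM + 1), RLE size factors, no low-count filter, models of the compared groups alone, a replicate block, and leaving out each replicate or line. The tests were checked on simulated counts, drawn independently with the same dispersion for every gene. The wider spread of the ATF4 arm in some groups was not simulated, so that check does not cover it. Same-numbered samples were taken as paired only where each correlation of their deviations from the group means was over 0.1, which held in the HS578T shRNA groups alone (7 of 7 pairs, 0.22 to 0.81).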

Additional observations from a re-analysis of the deposited data

Results flagged for a closer look

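For 25 pairs of member and reagent, the log2 fold change against the NT control differed between the 3 lines by the test of the difference itself (edgeR's quasi-likelihood test, adjusted p below 0.05). The value given for each is the gap between the line with the highest and the line with the lowest fold change.

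With siNRP1#3, 13 members were found, each lowest in SUM159PT and highest in HS578T. In the ATF4 arm the gaps were 3.78 for TRIB3, 3.11 for SLC7A5, 2.99 for SESN2, 2.93 for PSAT1, 2.66 for DDIT3, 2.44 for SLC3A2, 1.88 for ATF4, 1.65 for CEBPB and 1.56 for SHMT2. In the ER arm they were 2.26 for HSPA5, 1.97 for ERN1, 1.47 for XBP1 and 1.11 for HYOU1. In the order SUM159PT, MDA-MB-231 and HS578T, TRIB3 had -1.80, 0.53 and 1.97 (adjusted p = 0.0030 for the difference), and SESN2 had -0.74, 0.93 and 2.24 (adjusted p = 0.00067). None of the 13 was called without the samples of replicate number 1.

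With siNRP1#5, 11 members were found, each highest in HS578T. DDIT3 was the ATF4 arm gene, with a gap of 2.23. The ER arm genes had gaps of 2.87 for HSPA5, 2.18 for DNAJC3, 1.90 for EDEM1, 1.84 for ERN1, 1.70 for DNAJB9, 1.50 for HSP90B1, 1.40 for SEL1L, 1.33 for HERPUD1 and 1.3 for both MANF and CANX. In the same order of lines, HSPA5 had 0.45, -0.48 and 2.39 (adjusted p = 7.4e-07), and DNAJC3 had -0.81, -0.74 and 1.37 (adjusted p = 9.2e-06). The HS578T siNRP1#5 samples also held the transcripts of MDA-MB-231 described in the report.

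With shNRP1#5, ERN1 had a gap of 1.25, from -0.84 in SUM159PT to 0.41 in MDA-MB-231 (adjusted p = 0.046). It was not called without replicate number 1 or 2.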

How the results depend on the processing

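Numbers below are counts of members called, with the count of the report in brackets. Of 280 counts under other settings that left out no replicate, 228 lay within 1.5 times the reported count. Without the low-count filter they were 1 (0) for shNRP1#3, 19 (11) for siNRP1#3 and 17 (11) for siNRP1#5 in MDA-MB-231, 6 (0) for shNRP1#5, 23 (12) for siNRP1#3 and 12 (6) for siNRP1#5 in SUM159PT, 2 (0), 5 (0) and 17 (11) in the mean for shNRP1#3, shNRP1#5 and siNRP1#3, 8 (1), 24 (13) and 18 (11) between lines for shNRP1#5, siNRP1#3 and siNRP1#5, 5 (3), 14 (8) and 9 (0) between routes in HS578T, MDA-MB-231 and SUM159PT, 4 (0) between the SUM159PT shRNAs, and 7 (4) and 11 (4) between the NT controls of HS578T and SUM159PT.

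In models of the compared groups alone the counts were 20 (10), 17 (11) and 1 (11) for MDA-MB-231 shNRP1#5, siNRP1#3 and siNRP1#5, 0 (6) for SUM159PT siNRP1#5, 16 (8) between the MDA-MB-231 shRNAs, and 2 (0) and 14 (22) between the SUM159PT shRNAs and siRNAs. DESeq2 gave 1 (0) for SUM159PT shNRP1#5, 1 (0) between its shRNAs, 2 (0) between its routes and 8 (4) between its NT controls. limma on log2(TPM + 1) gave 2 (7), 14 (9) and 8 (22) between the siRNAs in HS578T, MDA-MB-231 and SUM159PT, 1 (0) between the SUM159PT shRNAs, 1 (0) in the mean for shNRP1#3 and 0 (1) between lines for shNRP1#5. That last count was 0 with RLE size factors and after either subtraction of reads of other lines too. In the mean, siNRP1#5 gave 10 without HS578T and 8 without SUM159PT (17), and shNRP1#5 gave 1 (0) without HS578T or MDA-MB-231.

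With a replicate block, HS578T siNRP1#3 and siNRP1#5 gave 14 (9) and 20 (12), SUM159PT siNRP1#3 and shNRP1#5 20 (12) and 3 (0), the SUM159PT shRNAs 4 (0), its routes 1 (0), the mean of shNRP1#3 and shNRP1#5 1 (0) and 2 (0), and the differences between lines 23 (13) for siNRP1#3 and 4 (1) for shNRP1#5. Same-number correlations passed 0.1 in 6 of 7 pairs in SUM159PT siRNA, 7 of 9 in MDA-MB-231 siRNA, 4 of 9 in HS578T siRNA, 5 of 9 in SUM159PT shRNA and 3 of 9 in MDA-MB-231 shRNA. In the paired HS578T shRNA groups, both knockdown counts stayed at 0.

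Leaving out each replicate gave 3 to 6 (9) and 9 to 12 (12) in HS578T siNRP1#3 and siNRP1#5, 7 to 8 (11), 7 to 13 (11) and 6 to 7 (10) in MDA-MB-231 siNRP1#3, siNRP1#5 and shNRP1#5, and 5 to 13 (12) and 3 to 13 (6) in SUM159PT siNRP1#3 and siNRP1#5. It gave 5 to 10 (11), 5 to 17 (17) and 0 to 1 (0) in the mean for siNRP1#3, siNRP1#5 and shNRP1#5, and 0 to 16 (13), 7 to 15 (11) and 0 to 1 (1) between lines. Between routes it gave 1 to 4 (3), 5 to 11 (8) and 0 to 6 (0) in HS578T, MDA-MB-231 and SUM159PT, and between siRNAs 2 to 6 (7), 8 to 14 (9) and 11 to 23 (22). The MDA-MB-231 shRNAs gave 2 to 5 (8). The NT controls gave 3 to 9 (4), 16 to 21 (23) and 1 to 8 (4) in HS578T, MDA-MB-231 and SUM159PT, and the lines 20 to 23 (23), 12 to 19 (18) and 9 to 15 (16) for HS578T against MDA-MB-231, SUM159PT against MDA-MB-231 and HS578T against SUM159PT. The libraries behind these changes are named beside the counts in the report. Where SUM159PT siNRP1#5 was left with 1 sample, that sample was assumed to vary like the other groups.

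Of the values for named genes under other settings, 1373 stayed on their side of the threshold, 98 lost the call and 33 gained it. Another 3 changed direction with the reported or the other value past the threshold. Changes of direction where neither value passed are among the 1373. Without SUM159PT siNRP1#5 replicate 2, DDIT3 had -2.44 there (adjusted p = 0.022) and MTHFD2 -0.079, and without replicate 3 they had 1.27 and 1.75, and without HS578T the siNRP1#5 mean of HSPA5 was -0.024. The XBP1-202 share difference was -9.55 with siNRP1#5 as a share of XBP1-201 and XBP1-202, and between NT controls -11.7 without SUM159PT and 2.60 without MDA-MB-231. Unless a setting itself removed samples or added genes, the cause was not tested. With 2 or 3 samples a group, the spread between replicates limits what these tests can pass.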
